A study of Rattus norvegicus with 15 samples.

Results

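The comparison is between the livers of rats fed ethanol over a long period (EtOH) and the livers of rats pair-fed a carbohydrate control diet (CHO), both taken at the moment of partial hepatectomy (PHx), the surgical removal of part of the liver, and so before any regeneration. There were 3 EtOH arrays and 4 CHO arrays, 7 of the 15 arrays in the series. The other 8 arrays hold liver taken 1, 6, 12 or 24 h after the surgery, and 7 of them were pooled from the same animals as an array from before it. Every array carried total RNA pooled from 4 animals, so an array averages over animals and the spread between arrays is a spread between pools. The EtOH pools of the 1 h and 6 h sets had 1 animal in common, as did the CHO pools of those sets, which leaves 11 distinct EtOH animals and 15 distinct CHO animals. The tissue was whole liver frozen between cold clamps. Strain, age, sex and the ethanol content of the diet were not given in the sources used here. The array held probes for 350 rat microRNAs (miRNAs), and the 143 that the scanner software called detected on at least 3 of the 7 arrays are the members described here.

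MicroRNAs are short RNAs that pair with messenger RNAs through a seed near their 5′ end and lower the stability or translation of those messengers. Many are cut from a shared primary transcript, so neighbours in the genome can be made together and still reach different mature levels. In liver, miR-122 is the dominant hepatocyte miRNA, while stellate cells, endothelium, bile duct epithelium and blood cells contribute their own. In these bulk samples, fewer cells of a type and less RNA per cell cannot be told apart.

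Values below are scaled signals, the background-subtracted fluorescence of each miRNA's brightest probe after every array was brought to the same 75th percentile of 393. Differences are EtOH minus CHO on the log2 scale. Signals under a floor of 9.61 were set to it. A miRNA was called when limma's Benjamini-Hochberg adjusted p over the 143 was under 0.05. As a check of the tissue label, the hepatocyte marker miR-122 was detected on all 7 arrays, at 37140 ± 3189 (SD, n = 3) with ethanol feeding and 36450 ± 2988 (SD, n = 4) with control feeding. The 3 skeletal and cardiac muscle markers miR-1, miR-133a and miR-133b, and the brain markers miR-124 and miR-9, were detected on none of the 7 arrays. The other brain marker on the list, miR-128, was detected on 2 of 3 EtOH and 4 of 4 CHO arrays, at means of 12.6 and 13.3.

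The arrays of the diets differed in brightness and in noise. Before scaling, the 75th percentile was 288.1, 410.5 and 236.5 on the EtOH arrays and 397.3 to 515.5 on the CHO arrays. Between 124 and 149 miRNAs were detected per array. EtOH replicate 3 stood apart, with a median variation between repeated spots of 34.0%, against 8.27% to 9.09% on the other 6 arrays. It was also the dimmest array and detected the fewest miRNAs. The median SD between pools was 0.18 among the EtOH arrays and 0.11 among the CHO arrays on the log2 scale. The part of brightness and of spot noise in the diet differences was not tested. Both slides carried both diets, with 2 EtOH and 2 CHO arrays on slide 1 and 1 EtOH and 2 CHO arrays on slide 2. Values within each slide are therefore given beside the main ones. The EtOH array on slide 2 was the noisy replicate 3, so every slide 2 value sets that 1 array against 2 CHO arrays.

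The sequences of the called miRNAs are shown first, grouped by seed. Among the called miRNAs with a matched sequence, only miR-20a and miR-106b share a seed. Mature sequences were matched by name for 104 of the 143 miRNAs and for 14 of the 18 called ones, and come from RefSeq with the GRCr8 build. They are written 5′ to 3′ with the seed (bases 2 to 8) in capitals. The first group shares the seed AAAGUGC, and all 4 of its tested members lay below 0.
miR-20a: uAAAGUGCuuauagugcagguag
miR-106b: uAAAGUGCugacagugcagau
miR-17: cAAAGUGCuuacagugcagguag
miR-93: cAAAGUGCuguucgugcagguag

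The next pair has the seed GUGCAAA and comes from the same chromosome 15 cluster as miR-17 and miR-20a.
miR-19b: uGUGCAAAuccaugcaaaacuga
miR-19a: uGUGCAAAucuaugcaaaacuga

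The seed AGCAGCA belongs to the miR-15 and miR-16 family, of which miR-322 is a member. The called member is shown with the uncalled miR-16 and miR-497.
miR-322: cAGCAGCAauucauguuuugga
miR-16: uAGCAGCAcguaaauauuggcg
miR-497: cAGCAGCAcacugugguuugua

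Of the remaining called miRNAs with a matched sequence, 7 were lower in EtOH and shared no seed with another called miRNA.
miR-350: uUCACAAAgcccauacacuuucac
miR-450a: uUUUGCGAuguguuccuaaugu
miR-125b-5p: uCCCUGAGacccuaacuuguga
miR-532-5p: cAUGCCUUgaguguaggacugu
miR-221: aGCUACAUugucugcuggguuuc
miR-10a-5p: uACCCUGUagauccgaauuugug
miR-143: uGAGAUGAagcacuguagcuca

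The called miRNAs that were higher in EtOH are shown with miR-148b-3p, which has the seed of miR-152.
miR-152: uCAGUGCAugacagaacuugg
miR-148b-3p: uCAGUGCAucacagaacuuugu
miR-185: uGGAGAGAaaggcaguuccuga
miR-96: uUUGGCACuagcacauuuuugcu
The other 4 called miRNAs were miR-200a, miR-200b, miR-126 and miR-151.

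Diet differences before surgery were small in size and mostly downward. The test called 18 of 143 miRNAs (12.6%), of which 4 were higher in EtOH (2.8%) and 14 lower (9.79%). No tested miRNA differed by more than 1 on the log2 scale, and 10 differed by more than 0.5. The median difference over all 143 was −0.05 and the median absolute difference 0.15, against a median SE of 0.11. In total, 83 miRNAs lay below 0, 53 above, and 7 had a brightest probe at the floor on all 7 arrays and so a difference of exactly 0. For 34 miRNAs the EtOH and CHO arrays did not overlap at all (23.8%), with EtOH above CHO for 5 (3.5%) and below it for 29 (20.3%). All 18 called miRNAs were among these 34. An exact permutation test over the 35 splits of 7 arrays cannot give a two-sided p under 0.0571, and that value was reached by each of the 18.

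The balance of higher and lower calls moved with the scaling. Beside the 4 higher and 14 lower calls, scaling each array on its median gave 5 and 2, quantile normalization 3 and 1, the authors' deposited values 5 and 9, and the scanner software's total gene signal 2 and 20. With the 75th percentile taken over all probes there was 1 higher and 0 lower call, and with no scaling 0 and 43. Relative to the reported median of −0.05, the median of all 143 moved to −0.16 with total gene signal and to −0.52 with no scaling. It moved to 0.40 with the normexp background method and to 0.21 with normexp and a single background per array. Normexp adds an offset of 50 to every signal before scaling, and called 0 miRNAs (7 at an unadjusted p under 0.05) with spot backgrounds and 1 with a single background. Several dim members changed sign under normexp, and their values are given with them.

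**Figure D1:**
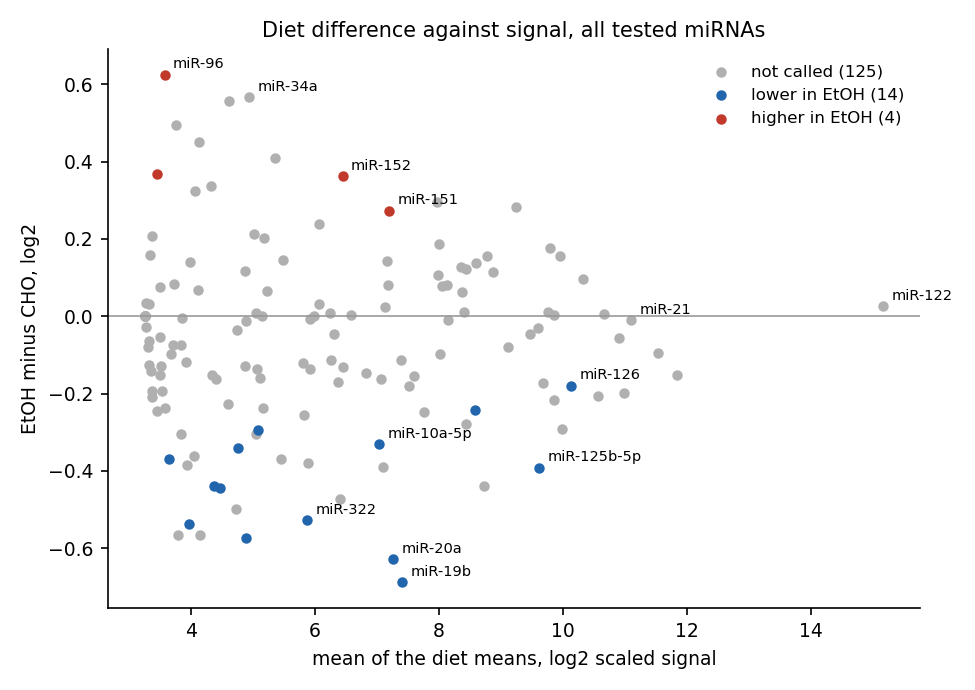
Diet difference (EtOH minus CHO, log2) against the mean of the 2 diet means (log2 scaled signal) for the 143 tested miRNAs, 1 point each. The 14 called lower are blue, the 4 called higher red and the other 125 grey, and no point lies beyond 1 in either direction on these floored values.

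The miR-17-92 cluster, which is transcribed as 1 primary RNA and is best known for promoting cell cycle entry, held the largest decreases. Its 5 tested members lie on the plus strand at chr15:98587861-98588622, and all 5 were below 0, from −0.69 to −0.25. The scaled signal of miR-20a was 126, 122 and 123 on the EtOH arrays and 192, 196, 185 and 191 on the CHO arrays. The arrays within each diet lay close together and the diets were far apart. In log2 units miR-20a fell by 0.63 with an SE of 0.03 (limma adjusted p = 7.91e-05), from 191 ± 4.22 (SD, n = 4) in CHO to 124 ± 2.24 (SD, n = 3) in EtOH. The difference was −0.64 within slide 1 and −0.62 within slide 2. The unscaled signals of the 2 diets also did not overlap, at 73.7 to 127 in EtOH and 187 to 251 in CHO. EtOH replicate 2, with an unscaled 75th percentile of 410.5, gave an unscaled miR-20a signal of 127. CHO replicate 3, with an unscaled 75th percentile of 397.3, gave 187.

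miR-19b read 148, 136 and 119 in EtOH and 211, 232, 181 and 244 in CHO. It fell by 0.69 (SE 0.13, limma adjusted p = 0.0328), with a wider spread in both diets than miR-20a. Its sequence is present in the chromosome 15 cluster and again in a related cluster on the minus strand of chromosome X (chrX:137343070-137343092), as are those of miR-17 and miR-92a, so the array cannot assign them to a locus. The seed partner miR-19a read 10.4, 10.4 and 13.7 in EtOH and 14.4 to 21.8 in CHO. Its difference was −0.57 and was not called (limma adjusted p = 0.105). miR-17 read 48.4, 49.9 and 58.0 in EtOH and 60.7, 63.0, 60.8 and 63.5 in CHO. The diets did not overlap for miR-17, but the difference of −0.26 missed the threshold (limma adjusted p = 0.0617). miR-92a overlapped between the diets, at 185 to 214 in EtOH and 208 to 259.7 in CHO (difference −0.25, limma adjusted p = 0.181).

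The paralogous miR-106b-25 cluster lies on the minus strand of chromosome 12 inside Mcm7, a gene of the DNA replication helicase. miR-106b read 30.4, 32.1 and 29.8 in EtOH and 37.0, 37.1, 35.2 and 41.8 in CHO, and fell by 0.29 (SE 0.07, limma adjusted p = 0.0424). The neighbours miR-93 (−0.14, limma adjusted p = 0.334) and miR-25 (0.02, limma adjusted p = 0.991) were not called, and their arrays overlapped. Across both clusters and the other related sequences listed, 8 of 16 miRNAs on the array were tested, 3 were called lower and 7 lay below 0, against 9.79% called lower and 58.0% below 0 over all 143. Their median difference was −0.27, against −0.05 over all 143, and it turned to 0.25 with normexp and 0.11 with normexp and a single background. Both methods left miR-20a and miR-19b below 0.

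Whether members of these clusters differed by the same amount could not be settled with 7 arrays. Over the 28 pairs of the 8 members, the difference between 2 members' diet effects was compared within arrays. For 11 pairs the EtOH and CHO arrays did not overlap. The difference of miR-20a was lower than that of miR-17 by 0.37 and than that of miR-25 by 0.65 on the log2 scale, each with the smallest two-sided p the exact permutation test allows (0.0571; 0.145 after Benjamini-Hochberg adjustment over the 28). By the same exact test, the effects of miR-20a and miR-19b differed by 0.06 with overlapping arrays (p = 0.629). At this number of arrays no pair could pass a threshold of 0.05.

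**Figure D2:**
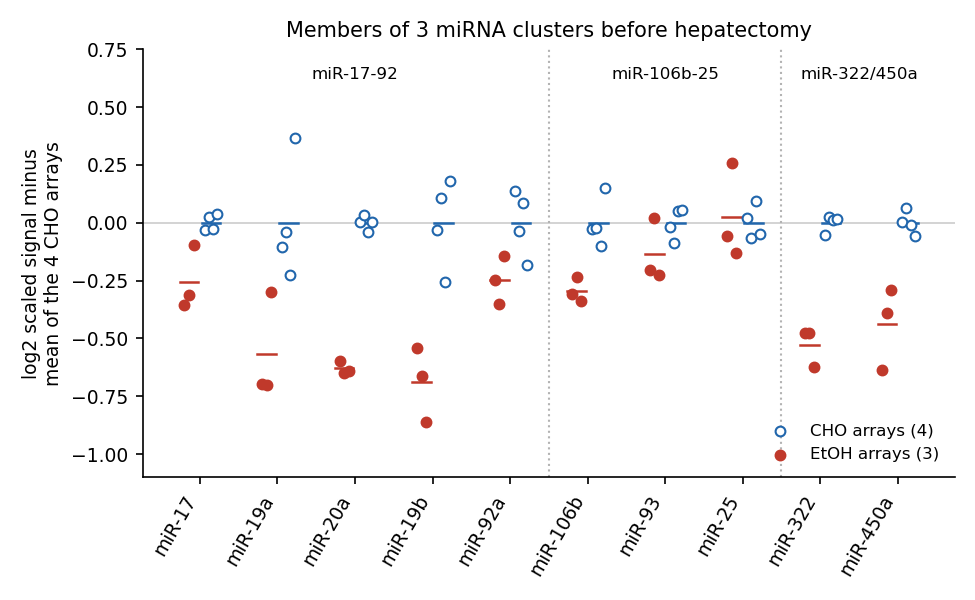
Log2 scaled signal on each array minus the mean of the 4 CHO arrays for members of the miR-17-92, miR-106b-25 and miR-322/450a clusters, with 3 EtOH arrays as filled red points, 4 CHO arrays as open blue points and diet means as bars. miR-20a, miR-322 and miR-450a show separated diets, while miR-93 and miR-25 overlap. Under normexp with spot backgrounds, 5 of the 8 tested miR-17-92 and miR-106b-25 members lie above 0, miR-106b among them, and 3 below. The means of miR-322 and miR-450a also lie above 0 there.

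Both called members of the miR-322 and miR-450 cluster on chromosome X fell together. miR-322, the rat counterpart of human miR-424, is known for slowing the cell cycle and for its role in muscle and endothelial differentiation. It read 50.5, 50.4 and 45.5 in EtOH and 67.8, 71.4, 70.8 and 71.0 in CHO. It fell by 0.53 (SE 0.05, limma adjusted p = 0.00234), and the gap between the diets exceeded the range within either. The difference was −0.46 within slide 1 and −0.64 within slide 2. miR-450a read 15.5, 18.4 and 19.7 in EtOH and 23.2 to 25.2 in CHO, and fell by 0.44 (SE 0.09, limma adjusted p = 0.0347). The 2 mature sequences lie on the minus strand between 137720985 and 137726219 of chromosome X. Of the 7 listed members 3 were tested and 2 called lower, against 9.79% called lower over all 143. The third, the passenger strand miR-322*, was at the floor on all 7 arrays. The differences turned to 0.18 for miR-322 and 0.48 for miR-450a with normexp, and to 0.21 for miR-450a with a single background.

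None of the 4 seed partners of miR-322 was called, and whether their differences were smaller than that of miR-322 was not tested. miR-497 read 183 to 185 in EtOH and 192 to 229.8 in CHO, without overlap (difference −0.15, limma adjusted p = 0.226). miR-16 (−0.22), miR-195 (−0.10) and miR-15b (0.11) overlapped between the diets and were not called. Of the 5 tested miRNAs with this seed, 1 was called lower and 4 lay below 0, with a median of −0.15 that became 0.03 with normexp. Over all 143 miRNAs 9.79% were called lower, 58.0% lay below 0 and the median was −0.05.

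miR-10a-5p, which sits within a Hox gene cluster on chromosome 10 (chr10:81779730-81779752), was the third miRNA with a tight separation. It read 118, 113 and 122 in EtOH and 150.1, 149, 141 and 150.1 in CHO, and fell by 0.33 (SE 0.04, limma adjusted p = 0.00771). The difference was −0.38 within slide 1, −0.26 within slide 2 and 0.01 with normexp. Its near copy miR-10b read 27.0 to 34.96 in EtOH and 34.2 to 41.1 in CHO and was not called (−0.30, limma adjusted p = 0.181). miR-196a, miR-196b and miR-196c, also encoded among Hox genes, had differences of −0.15, −0.24 and −0.04 and were not called. Probes for near-identical miRNAs such as miR-10a and miR-10b, or miR-196a and miR-196c, can share target RNA, and how far they did so was not tested.

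The miR-99, miR-100 and miR-125 guide strands come from related clusters and include known repressors of growth signalling. All lay below 0 (5 of 5, median −0.39), against 58.0% over all 143. Their median stayed below 0 under all 8 scaling and background alternatives computed for the lists, at −0.04 with normexp. With normexp, a single background or median scaling, 3 members lay below 0 and 2 above. With quantile normalization or the authors' values, 4 lay below 0 and 1 above. 1 of the 5 was called, against 12.6% over all 143. miR-125b-5p read 691, 757 and 620.0 in EtOH and 857, 869.8, 979 and 904 in CHO, and fell by 0.39 (SE 0.08, limma adjusted p = 0.0391). Its difference was −0.26 within slide 1 and −0.60 within slide 2. miR-100 (−0.39, limma adjusted p = 0.0617) and miR-99a (−0.44, limma adjusted p = 0.0666) showed no overlap between the diets but were not called. miR-125a-5p (−0.12) and miR-99b (−0.05) overlapped.

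Of the 5 miR-200 family members on the array, which keep epithelial cells from taking on mesenchymal features, 3 were tested and all 3 lay below 0. The called members were 2, miR-200a and miR-200b, both lower in EtOH. Over all 143 miRNAs 9.79% were called lower and 58.0% lay below 0. miR-200b read 28.3, 24.5 and 20.7 in EtOH and 34.3, 42.1, 33.6 and 35.3 in CHO. It fell by 0.57 (SE 0.13, limma adjusted p = 0.0424). miR-200a read 20.8, 17.6 and 18.8 in EtOH and 24.2 to 29.0 in CHO, and fell by 0.45 (SE 0.08, limma adjusted p = 0.0328). Neither overlapped between the diets. Within slides 1 and 2, miR-200b differed by −0.53 and −0.74, and miR-200a by −0.52 and −0.38. miR-200c and miR-141 were not tested, and the third tested member, miR-429, had its brightest probe at the floor on all 3 EtOH arrays (difference −0.08, not called). The list median of −0.45, against −0.05 over all 143, turned to 0.48 with normexp and 0.19 with a single background. The 7 markers of biliary and other epithelium had summed scaled signals of 414 to 445 in EtOH and 397 to 442 in CHO, which overlapped. miR-141 among them was detected on no array, and miR-31 (0.13) and miR-203 (0.21) were not called.

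Among markers of mesenchymal, endothelial and blood cells, 2 were called, miR-143 and miR-126, both lower in EtOH. The 5 markers of stellate cells, myofibroblasts and smooth muscle had summed scaled signals of 525 to 594 in EtOH and 617 to 668 in CHO. Those of the 2 endothelial markers were 1064 to 1133 against 1209.9 to 1299.6, and those of the 5 leukocyte markers on the array 299 to 315 against 327 to 371. The sums of these 3 lists did not overlap between the diets. The called miR-143 made up most of the stellate sum (333 to 375 in EtOH). The called miR-126 made up nearly all of the endothelial sum (1034 to 1103 in EtOH). Over all 143 miRNAs, 9.79% were called lower and 20.3% had every EtOH array below every CHO array. The 2 erythroid markers overlapped, at 629 to 898 in EtOH and 618 to 1229.6 in CHO. The median differences of the endothelial (−0.21), leukocyte (−0.11) and erythroid (−0.21) lists turned to 0.09, 0.36 and 0.20 with normexp, the leukocyte and erythroid ones to 0.14 and 0.06 with a single background, and the leukocyte one stood at 0 with median scaling. All of these markers were detected on at least 1 of the 7 arrays. The part of cell composition in the diet differences was not tested.

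Among the mesenchymal markers miR-143, a smooth muscle miRNA, read 346, 333 and 375 in EtOH and 423, 431, 418 and 389.8 in CHO. It fell by 0.24 (SE 0.05, limma adjusted p = 0.0424). Its partner miR-145, from the same transcript Carmn on chromosome 18, pointed upward (0.24, limma adjusted p = 0.526) with overlapping arrays. The stellate cell strands miR-199a-3p (−0.47, limma adjusted p = 0.0532) and miR-199a-5p (−0.37, limma adjusted p = 0.0793) showed no overlap between the diets but were not called. miR-199a-3p read 74.9, 78.4 and 64.0 in EtOH and 84.9 to 112 in CHO. miR-214 from the same cluster overlapped (−0.08). Of 7 tested miRNAs in the wider stellate and smooth muscle list, 1 was called lower, against 9.79% over all 143. The list median of −0.08, against −0.05 over all 143, turned to 0.41 with normexp and 0.26 with a single background.

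miR-126, which supports vascular integrity and is the classic endothelial miRNA, read 1040.0, 1034 and 1103 in EtOH and 1193, 1171, 1263 and 1169.8 in CHO. It fell by 0.18 (SE 0.04, limma adjusted p = 0.0424). Its passenger strand miR-126* pointed the same way without a call (−0.24, limma adjusted p = 0.198). Within slides 1 and 2, miR-126 differed by −0.19 and −0.14, and miR-143 by −0.33 and −0.11. Fitted with all 15 arrays, miR-126 (adjusted p = 0.0813) and miR-143 (adjusted p = 0.0883) were no longer called by limma.

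None of the 5 tested leukocyte miRNAs was called. The pan-leukocyte miR-142-3p read 26.1, 17.7 and 24.2 in EtOH and 27.1 to 35.8 in CHO (−0.50, limma adjusted p = 0.122). The lymphocyte miRNA miR-150 read 43.7, 54.8 and 58.2 in EtOH and 60.2 to 78.8 in CHO (−0.38, limma adjusted p = 0.151). Neither overlapped between the diets, whereas the myeloid miR-223 (0.03) and the inflammation-induced miR-146a (−0.11) did. The erythroid miR-451 (−0.17) and miR-144 (−0.24) varied widely within each diet and were not called.

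4 further called miRNAs were lower in EtOH. miR-221, a miRNA tied to proliferation and to repression of cyclin kinase inhibitors, read 25.8, 21.8 and 25.2 in EtOH and 28.8, 30.5, 32.9 and 30.3 in CHO. It fell by 0.34 (SE 0.08, limma adjusted p = 0.0424), and differed by −0.32 within each slide. Its cluster partner miR-222 was not among the tested miRNAs. miR-350, within Cep170 on chromosome 13, read 12.3, 14.5 and 12.4 in EtOH and 17.7, 21.2, 17.6 and 19.5 in CHO, and fell by 0.54 (SE 0.09, limma adjusted p = 0.0309). miR-532-5p, within Clcn5 on chromosome X, read 12.1, 10.8 and 10.2 in EtOH and 13.4 to 14.8 in CHO, and fell by 0.37 (SE 0.07, limma adjusted p = 0.0328).

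These last 2 lay near the floor in EtOH, where their brightest probe was well above background on 1 of 3 arrays for each, against 4 of 4 in CHO. miR-532-3p from the same hairpin showed no overlap between the diets (−0.19, limma adjusted p = 0.0861). With normexp the differences were 0.53 for miR-350, 0.58 for miR-532-5p, 0.46 for miR-221 and 0.41 for miR-106b. Within slides 1 and 2 the scaled differences were −0.54 and −0.57 for miR-350, −0.33 and −0.46 for miR-532-5p, −0.25 and −0.36 for miR-106b, −0.55 and −0.26 for miR-450a, and −0.64 and −0.82 for miR-19b.

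4 miRNAs were higher in EtOH, and 2 of them, miR-152 and miR-185, belong to the list of miRNAs known to target the DNA methyltransferase Dnmt1. That list had 6 tested members, and over all 143 miRNAs 2.8% were called higher. miR-152, within Copz2 on chromosome 10, read 91.4, 101 and 105 in EtOH and 75.4, 76.6, 82.0 and 74.1 in CHO. It rose by 0.36 (SE 0.06, limma adjusted p = 0.0309). miR-185, within Tango2 on chromosome 11, read 11.6, 14.4 and 11.5 in EtOH, and in CHO it stood at the floor on 3 arrays and at 9.81 on the other. It rose by 0.37 (SE 0.08, limma adjusted p = 0.0424), with its brightest probe well above background on 2 of 3 EtOH arrays and 1 of 4 CHO arrays. The size of its difference, here and within slides, is therefore set in part by the floor. The other 4 tested members of that list, miR-148b-3p and the 3 miR-29 miRNAs, were not called. miR-148b-3p, which shares the seed of miR-152, had a difference of 0.20 (limma adjusted p = 0.523). miR-29a, miR-29b and miR-29c, known for restraining collagen expression, had differences of −0.06, −0.17 and −0.05. The median of the Dnmt1 list was 0.08, against −0.05 over all 143. With no scaling it was −0.45, against −0.52 over all 143.

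miR-151 read 157, 162 and 166 in EtOH and 132, 130.2, 144 and 129.9 in CHO, and rose by 0.27 (SE 0.05, limma adjusted p = 0.0309). miR-96, a member of the sensory organ cluster with miR-183 and miR-182, read 12.1, 14.9 and 17.9 in EtOH and stood at the floor on all 4 CHO arrays. Its brightest probe was well above background on 3 of 3 EtOH arrays and 0 of 4 CHO arrays, so only a bound can be given: the EtOH level was at least 1.4955-fold higher (limma adjusted p = 0.0381), taking each CHO array at the highest of the floor, its own signal and its dimmest detected probe. miR-96 was detected on 3 of 3 EtOH arrays and 1 of 4 CHO arrays and so met the detection filter mainly through EtOH, and its CHO values at the floor have no spread, which limits what its p can show. miR-183 and miR-182 were not among the tested miRNAs. Within slides 1 and 2 the differences were 0.34 and 0.43 for miR-152, 0.43 and 0.24 for miR-185, and 0.29 and 0.28 for miR-151. On both slides miR-96 read above the floor on every EtOH array and stood at the floor on every CHO array. With no scaling miR-151 (−0.26) and miR-152 (−0.17) lay below 0. There too miR-96 stood at the floor on all 4 CHO arrays, so its difference could not fall below 0. Unscaled, EtOH replicate 1 stood at the floor as well, and EtOH replicates 2 and 3 read 15.6 and 10.8, so the diets were no longer fully separated. The unscaled difference of miR-185 was 0.10. It rests on EtOH replicate 2 (15.1), because EtOH replicates 1 and 3 stood at the floor.

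**Figure D3:**
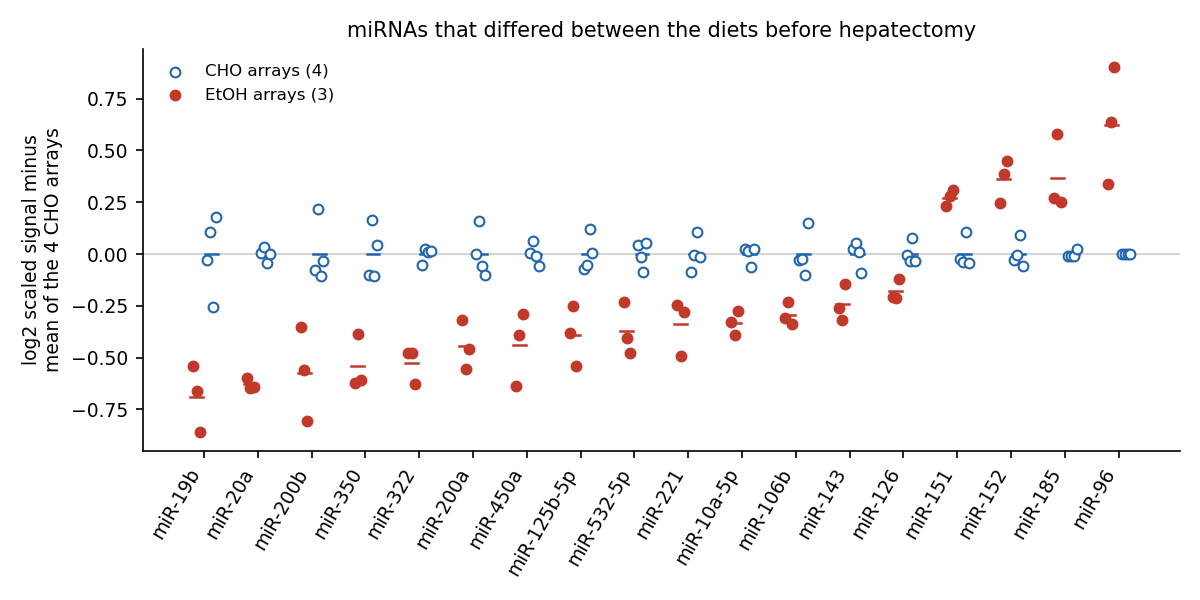
Log2 scaled signal on each array minus the mean of the 4 CHO arrays for the 18 called miRNAs, ordered by difference, with 3 EtOH arrays as filled red points, 4 CHO arrays as open blue points and diet means as bars. No EtOH point overlaps the CHO points of the same miRNA. Under the normexp background method 9 of the 18 do not keep the sign shown, and miR-151 and miR-152 do not keep it with no scaling.

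Several miRNAs well known in liver were not called. miR-122 differed by 0.03 (SE 0.09, limma adjusted p = 0.939), a difference whose sign turned under 5 of the 9 scaling and background alternatives. miR-21, which is induced in many injured and regenerating tissues, read 2217 ± 398 (SD, n = 3) with ethanol feeding and 2215 ± 158 (SD, n = 4) with control feeding (−0.01, limma adjusted p = 1.0). The p53-induced miR-34a read 50.6, 45.9 and 22.5 in EtOH and 19.8 to 30.5 in CHO. EtOH replicates 1 and 2 lay above all CHO arrays and EtOH replicate 3 among them (0.57, SE 0.32, limma adjusted p = 0.346). The hepatocyte nuclear factor driven and metabolic miRNAs miR-192, miR-194, miR-378, miR-103 and miR-107 all lay above 0, from 0.01 to 0.30, and none was called. Their median was 0.15, against −0.05 over all 143, and −0.38 with no scaling, against −0.52 over all 143.

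The 12 tested miRNAs named in earlier work on ethanol in rodent liver or gut had 3 members called lower (miR-126, miR-200a and miR-200b), none called higher and a median of −0.14, against 9.79% called lower, 2.8% called higher and a median of −0.05 over all 143. That median became 0.33 with normexp, 0.09 with a single background and 0.00 with median scaling. Members with overlapping diets included miR-122, miR-21, miR-34a, miR-146a, miR-212 (−0.16), miR-214 and miR-320 (0.45, limma adjusted p = 0.227). Of 7 tested miRNAs from earlier work on liver regeneration, 1 was called, miR-221, against 12.6% called over all 143. The 8 tested let-7 family members, which restrain growth in many tissues, split 4 and 4 around 0 with none called, from −0.21 for let-7c to 0.16 for let-7d. The 5 miR-30 family members, the miR-23, miR-24 and miR-27 miRNAs, and both miR-101 miRNAs had no calls. miR-26a (−0.20, limma adjusted p = 0.0533) and miR-26b (−0.29, limma adjusted p = 0.126) were lower on every EtOH array than on any CHO array without a call.

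**Figure D4:**
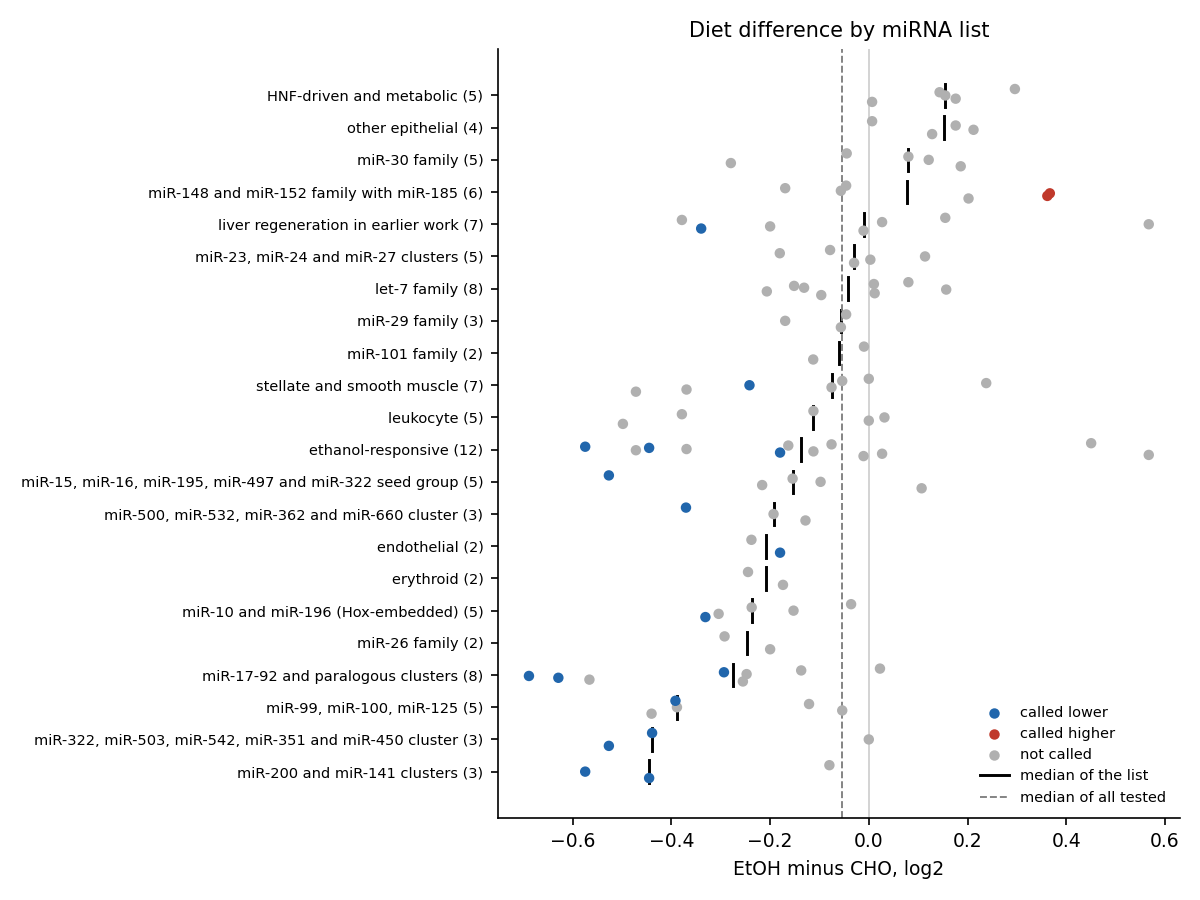
Diet difference (EtOH minus CHO, log2) of each tested miRNA by list, for lists with at least 2 tested members (number in brackets), with black bars for list medians and a dashed line for the median of all 143. Called miRNAs are coloured, and the lowest medians are those of the miR-200 list (−0.45) and the miR-322 list (−0.44), both above 0 under normexp.

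Counted by miRNA, detection leaned toward CHO, although EtOH replicate 2 detected the most miRNAs of the 7 arrays (149). EtOH replicates 1 and 3, the dimmest arrays before scaling, detected 131 and 124, and the CHO arrays 138 to 147. The part of brightness in detection was not tested. Of the 143 miRNAs, 120 were detected on all 7 arrays, 9 on 6 and 14 on 3 to 5. 12 were detected on all 4 CHO arrays but not on all 3 EtOH arrays, and 1 showed the opposite. 3 passed only through CHO: miR-335 was detected on 4 of 4 CHO arrays, let-7b* and miR-142-5p on 3 of 4, and all 3 on none of the EtOH arrays. Because the filter admitted them through 1 diet, their presence says nothing about a difference, and none of the 3 was called. With only the 120 miRNAs detected on all 7 arrays, limma called 11, of which 1 was higher and 10 lower.

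For some miRNAs the variation between pools of 1 diet was large. The SD within groups was largest for miR-196c (0.67), miR-196a (0.53), miR-34a (0.45), miR-188 (0.43) and miR-365 (0.43). miR-196c ranged from 20.8 to 42.0 among the EtOH arrays and from 13.7 to 40.9 among the CHO arrays. EtOH replicate 3 gave an extreme value for several of these. For miR-188 it read 45.6, against 24.3 and 23.6 on the other EtOH arrays, and for miR-365 it read 204, against 421 and 456. miR-7a, with a difference of −0.57 and no call (limma adjusted p = 0.226), read 18.5 and 17.2 on EtOH replicates 1 and 2, was at the floor on EtOH replicate 3, and read 20.5 to 24.3 in CHO. The smallest SDs above the floor belonged to miR-20a (0.03), which had the second largest difference in size, and to miR-140* (0.04), whose difference was 0.00. The 7 miRNAs at the floor on all arrays were miR-142-5p, miR-218, miR-30c-2*, miR-322*, miR-324-5p, miR-339-3p and miR-339-5p.

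Leaving out EtOH replicate 3 left 8 calls, 6 of them among the 18. The 6 were miR-20a (−0.62), miR-322 (−0.48), miR-10a-5p (−0.36), miR-450a (−0.51), miR-143 (−0.29) and miR-96, whose CHO values are all at the floor. The others kept their sign. They were miR-19b (−0.60), miR-200b (−0.46), miR-350 (−0.50), miR-200a (−0.44), miR-125b-5p (−0.32), miR-532-5p (−0.32), miR-221 (−0.37), miR-106b (−0.27), miR-126 (−0.21), miR-151 (0.25), miR-152 (0.32) and miR-185 (0.42). Only miR-20a, miR-322 and miR-10a-5p stayed called when each of the 7 arrays was left out in turn, and the number of calls then ran from 3 to 12. miR-106b, miR-126 and miR-221 were called in none of these 7 fits, and the remaining 12 in 1 or 2 of them. The smallest numbers, 3 calls each, came without CHO replicate 1 or CHO replicate 2. The signs of all 18 held in each of these 7 fits. With slide as a block, limma no longer called 7 of the 18: miR-126 (adjusted p = 0.0599), miR-450a (0.0633), miR-221 (0.0700), miR-125b-5p (0.0716), and miR-106b, miR-143 and miR-185 (0.0758 each).

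**Figure D5:**
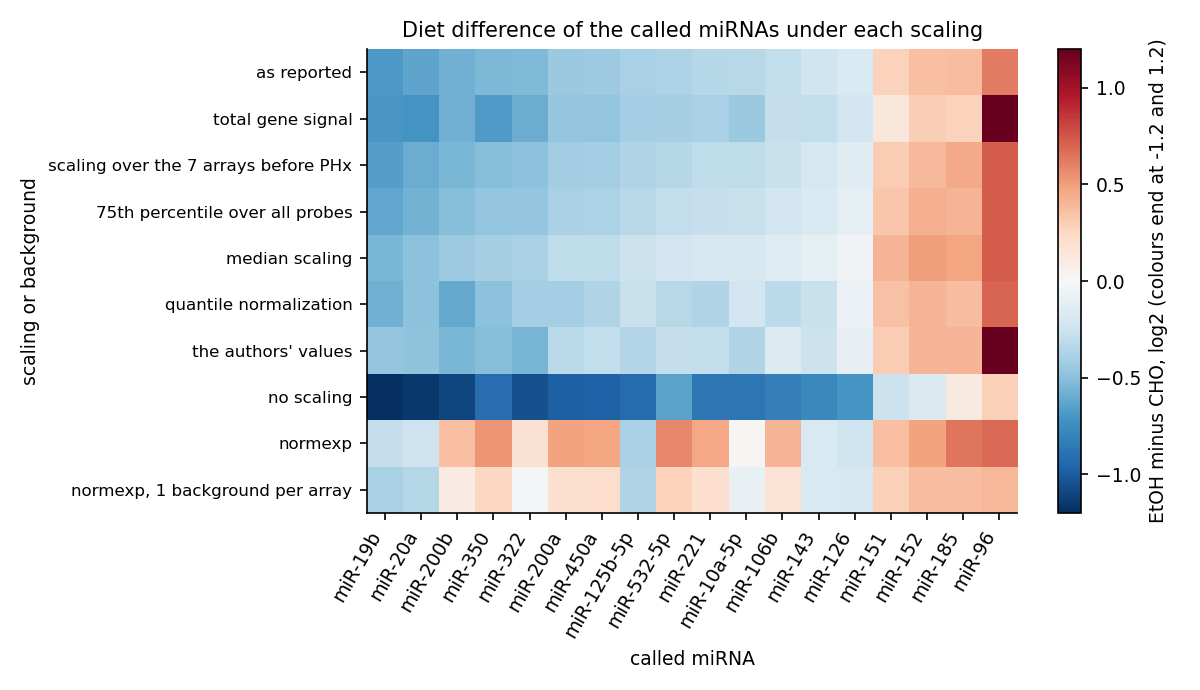
Diet difference (EtOH minus CHO, log2, as colour) of the 18 called miRNAs as reported and under 9 other scaling or background choices. Blue cells are lower in EtOH and red cells higher, and the lower rows show the sign turning for 9 miRNAs with normexp, 7 with a single normexp background, and for miR-151 and miR-152 with no scaling.

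Probes, arms and genome position added measures that the calls did not use. Of the 18 called miRNAs, 14 had at least 2 detected probes, and in all 14 every probe pointed the same way. Among 11 hairpins with both arms detected on all 7 arrays, both arms had the same sign in 8. Of 17 tested miRNAs with a mature sequence on chromosome X, 11 lay below 0 and 5 were called lower (miR-19b, miR-322, miR-450a, miR-532-5p and miR-221). Over all 143 miRNAs 58.0% lay below 0 and 9.79% were called lower. The chromosome X median was −0.19. Of the 17, miR-19b, miR-17, miR-92a and let-7f are also encoded on another chromosome, and the array cannot assign them to a locus. miR-322 and miR-450a come from 1 cluster. Over 89 miRNAs detected on all 7 arrays with a matched sequence, the diet difference rose with the GC content of the mature sequence (Pearson's r = 0.41, Spearman's rho = 0.35). This is a description across miRNAs, which share the same 7 arrays and are not independent. The mean GC content was 43.4% for the 11 called lower and 45.6% for the 3 called higher, against 47.2% for the 90 uncalled miRNAs with a sequence.

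After surgery the study had 1 pool for each diet and time, and 7 of these 8 pools came from the same 4 animals as a pool from before surgery. The model over all 15 arrays treats them as separate samples. It called 0 of 143 miRNAs for a diet difference after PHx that differed from the one before (0%), with 10 at an unadjusted p under 0.05 and a smallest limma adjusted p of 0.466. The diet difference of miR-20a was −0.63 before and −0.44 after, that of miR-19b −0.69 and −0.51, that of miR-322 −0.53 and −0.24, and that of miR-10a-5p −0.33 and −0.22. miR-152 stood at 0.36 and 0.39, and miR-151 at 0.27 and 0.23. miR-200b was the called miRNA with the largest change, from −0.57 before to 0.02 after (change 0.60, SE 0.18, limma adjusted p = 0.627). Over all 143, the largest changes were those of miR-125a-3p (0.49 before, −1.51 after), miR-188 (0.56, −0.67), miR-196c (−0.04, −1.13), miR-451 (−0.17, 0.73) and miR-196a (−0.15, −1.06). None of these passed the test of the change.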

How the data were processed

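Total RNA was labelled with Cy3 and hybridised 1 pool to an array, per the labels. The authors deposited 1 scanner file per array with spot intensity values and detection flags (another unit, 0 or 1), which Agilent Feature Extraction had background-subtracted (10.5.1.1 per the file headers, 10.7.3.1 per the submitters' processing notes). They also deposited a table of log2 values, whose normalization was not stated and whose sorted upper values coincide between arrays, as after quantile normalization. Scale and direction of that table were set against the scanner files, and its centring remains unknown.

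From the scanner files, processed intensities were averaged over the spots of each probe, leaving out control spots and spots flagged as outliers (2.19% of spots). Each array was scaled to its 75th percentile, computed from 185 probes that all 15 arrays detected, floored at 9.61 and taken to log2, and the brightest of each miRNA's 1 to 4 probes stood for it. Tests used limma 3.58.1 (lmFit and eBayes) in R 4.3.3 on the 7 arrays with 5 residual degrees of freedom, checked on simulated data. P-values were adjusted by Benjamini-Hochberg over 143 miRNAs. A miRNA was named if it was called, belonged to a list, ranked among the 5 with the largest uncalled difference, the smallest or largest SD, or the largest change after surgery, or was detected on all arrays of 1 diet and none of the other. Outside this rule, let-7b*, miR-140* and some miRNAs with a separate CHO array or a changed sign were named after their values were seen. Members and lists were chosen with earlier results of these data known. The files hold no mean raw signal, so normexp used the median signal with an offset of 50. Replicates are pools of 4 animals, and their number limits the precision. No coordinates were taken from a genome sequence, and positions are those of RefSeq's GRCr8 tables.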

Additional observations from a re-analysis of the deposited data

Results flagged for a closer look

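Among the 120 miRNAs detected and above the floor on all 4 CHO arrays, 14 had 1 array whose gap to the nearest other exceeded the 95% limit of Dixon's test, while chance gives about 6. CHO replicate 3 was the separate array in 11 of the 14. It was high for let-7a (3555 against 2894 to 2953 on the other CHO arrays), let-7c (1861 against 1562 to 1572), let-7d (1087 against 885 to 906), miR-23a (891 against 739.6 to 753), miR-30c (353.5 against 325 to 328) and miR-345-5p (38.6 against 35.9 to 36.1). It was also high for miR-214 (15.03 against 12.9 to 13.2), miR-125a-3p (14.01 against 10.49 to 10.9) and the called miR-151 (144 against 129.9 to 132). It was low for miR-30b-5p (342.5 against 393 to 397, of which 2 arrays stood exactly at the scaling percentile of 393, so that the scaling itself brings them together) and for the called miR-10a-5p (141 against 149 to 150.1). CHO replicate 1 was high for miR-7a (24.3 against 20.5 to 20.8) and low for the called miR-322 (67.8 against 70.8 to 71.4). CHO replicate 4 was high for miR-203 (36.2 against 27.7 to 28.7). For miR-10a-5p and miR-322 the separate CHO array is the one nearest to the EtOH arrays, and for miR-151 likewise, and all 3 still showed no overlap between the diets. The 3 EtOH arrays, among them the noisy EtOH replicate 3, were not put to this test.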

How the results depend on the processing

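The 18 calls (4 higher, 14 lower) stood beside 21 (4, 17) with all 15 arrays, 22 (2, 20) with total gene signal, 10 (3, 7) with scaling over the 7 arrays, 8 (2, 6) with the floor doubled, 15 (3, 12) with it halved, 8 (1, 7) with the mean over probes, 11 (1, 10) with detection on all 7 arrays and 3 (0, 3) with no detection filter. They became 4 (3, 1) with quantile normalization, 7 (5, 2) with median scaling, 14 (5, 9) with the authors' values, 1 (1, 0) with the percentile over all probes, 43 (0, 43) with no scaling, 0 (0, 0) with normexp and 1 (1, 0) with normexp and a single background. With slide as a block there were 12 (3, 9), within slide 1 12 (3, 9) and within slide 2 0 (0, 0; 24 at an unadjusted p under 0.05). Leaving out 1 array gave 3 to 12 calls, 0 to 3 of them higher and 3 to 9 lower. After seeing the data, 2 further settings were added: probes well above background on at least 3 arrays gave 13 (2, 11), and leaving out the 6 h pools, which share animals with the 1 h pools, gave 4 (1, 3). Signs turned with normexp for miR-106b (0.41), miR-10a-5p (0.011), miR-200a (0.48), miR-200b (0.36), miR-221 (0.46), miR-322 (0.18), miR-350 (0.53), miR-450a (0.48) and miR-532-5p (0.58). They turned with a single normexp background for miR-106b (0.17), miR-200a (0.19), miR-200b (0.10), miR-221 (0.20), miR-350 (0.25), miR-450a (0.21) and miR-532-5p (0.28), and with no scaling for miR-151 (−0.26), miR-152 (−0.17) and miR-345-3p (−0.38), which was not called as reported and was called lower there. With no scaling 48 of the 53 miRNAs above 0 lay below it. Normexp's spot background could not be fitted well on EtOH replicate 3 (background mean −72.7), and its offset weighs more on dimmer arrays by construction. With a single background the fitted background mean on EtOH replicate 3 was 0.78, and the signs listed for that setting still turned. Whether the poor fit or the offset turned any sign was not tested, and neither were other causes. The pool sets share a number between the diets. The correlations of same-set deviations were −0.11, −0.12 and 0.16. Because the deviations come from groups of only 3 and 4 arrays, they cannot settle whether the number pairs the arrays. With the set as a replicate block there were 2 calls (0 higher, 2 lower), miR-20a and miR-350, with 2 residual degrees of freedom. The test of the change after surgery called 0 also with each array before surgery left out in turn. Signals near the floor limit what can be measured for miR-96, miR-185, miR-350 and miR-532-5p.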
